A study of Homo sapiens with 18 samples.

Results

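A second series of wild-type cells, WT Rep. 2, shares a deposited table with the SP5 mutant clones, and its change from 0 to 48 h of Wnt3a is described here for all 497 genes of the deposited mutant table. The cells were H1 (WA01), an established human embryonic stem cell line grown in E8 medium. They received 1 nM Wnt3a for 12, 24 or 48 h, and the 0 h cells received none. The change in WT Rep. 2 rests on 2 of the 18 libraries of the study. The same 497 genes are also in the table of the first WT series, which lists 10975 genes, had the same treatment and times, and carries no replicate number in its label. The mutant table further holds dZF1 and dZF2, each a clone grown from a single H1 cell after CRISPR-Cas9 removal of the SP5 segment that encodes the zinc fingers, so that the clones are no WT replicate.

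Each series has 1 library at each time. No p-value is given for any change, and the spread between replicate cultures is unknown for each value. The mutant table scales each gene in WT Rep. 2 to its maximum over the 4 times, where levels were RPKM, that is, reads per kilobase of transcript scaled to the depth of the library. A gene at 1 is therefore at its highest, a gene at 0 is listed at 0, and levels of different genes cannot be compared. Changes are log2 ratios of 48 h over 0 h after adding 0.05 to each fraction, which caps a rise from 0 to 1 at 4.39 and understates the change of genes near 0. The RPKM of the first WT series were put on the same scale before the same ratio was taken. Read counts are not in the tables, so the depth behind each value is unknown. The genes of the mutant table were chosen by the authors for a change in these experiments, so the size of the change in the first WT series is not independent of their choice.

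In the WNT pathway, a WNT ligand binds a Frizzled receptor and its LRP co-receptor, β-catenin is spared from destruction, and it then works with TCF/LEF factors at target genes. In human embryonic stem cells this signal, together with NODAL, drives cells out of pluripotency towards the primitive streak, which gives rise to mesoderm and definitive endoderm. Feedback genes such as AXIN2 and the DKK family, themselves WNT targets, dampen the signal.

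The labelled cell type could be checked against levels only in the first WT series. All 8 embryonic stem cell markers were listed there, at a summed RPKM of 2989.4 at 0 h and 2079.7 at 48 h, with POU5F1 at 294.6 and 243.1 but NANOG at only 3.3 and 3.4. Of 8 trophoblast or amnion markers 0 were listed, which means an RPKM under 4 at each time or removal before deposition. Of 8 neural ectoderm markers 2 were listed (NES and FABP7, summed RPKM 162.5 and 204.9). Of 8 fibroblast markers 4 were listed (THY1, COL1A1, COL1A2 and PDGFRB, summed RPKM 218.3 and 125.4), and LUM, DCN, COL3A1 and TWIST2 were not. THY1 made up most of that sum, at 195.7 and 95.4. COL1A2 was at 13.8 and 24.1, COL1A1 at 4.2 and 2.6, and PDGFRB at 4.6 and 3.3. The 4 primitive streak markers summed to 0.7 at 0 h and 253.5 at 48 h, and the 4 definitive endoderm markers to 4.0 and 244.4. In bulk RNA, fewer cells of a type and less RNA per cell cannot be told apart.

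SP5 is a zinc finger protein that binds GC-rich DNA, and its gene was among those that rose most in WT Rep. 2. The sequence around the SP5 ChIP-Seq summit is shown for 4 of the 497 genes: SP5 and MIXL1, the 2 with a false discovery rate of 0%, and AXIN2 and MN1, which had opposite signs in the 2 WT series. In WT Rep. 2, AXIN2 and MN1 changed little, by -0.18 and -0.06 on the log2 scale. Each window holds 81 bases of the plus strand of GRCh37 (hg19), centred on the summit called against the Wnt3a-treated control, and overlaps no annotated exon. Capitals mark GGGCGG and GGGAGG on either strand, with overlapping matches each counted.
SP5, chr2:171571566-171571646: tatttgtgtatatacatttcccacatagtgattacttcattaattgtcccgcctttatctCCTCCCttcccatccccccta
MIXL1, chr1:226411127-226411207: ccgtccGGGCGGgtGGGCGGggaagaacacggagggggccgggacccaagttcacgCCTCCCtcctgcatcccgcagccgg
AXIN2, chr17:63556515-63556595: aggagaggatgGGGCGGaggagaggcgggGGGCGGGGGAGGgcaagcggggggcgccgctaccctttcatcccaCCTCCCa
MN1, chr22:28198034-28198114: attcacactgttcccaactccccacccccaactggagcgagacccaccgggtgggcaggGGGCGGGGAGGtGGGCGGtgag
The MIXL1, AXIN2 and MN1 windows each hold GGGCGG 2 times, and hold GGGAGG 1, 2 and 1 times. The SP5 window holds GGGCGG 0 times and GGGAGG 1 time. Of the windows of this length at 539 peaks of the list, 23.7% hold GGGCGG, 28.6% hold GGGAGG and 40.6% hold either.

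At 48 h of Wnt3a, 181 of the 497 genes were at least 2-fold higher in WT Rep. 2 than at 0 h (36.4%) and 32 were at least 2-fold lower (6.44%). Regulators of the primitive streak and of definitive endoderm had the highest changes. Of the 11 pluripotency genes with a value, 9 were lower at 48 h than at 0 h, and 0 reached 2-fold. Lower values were found for 146 of all 497 genes. The median change was 0.65 on the log2 scale, with quartiles of -0.13 and 1.39. The same 497 genes in the first WT series gave 274 higher, 92 lower and a median of 1.16. Over all 10975 genes of that series, 5.2% were at least 2-fold higher and 3.45% at least 2-fold lower. Without Wnt3a, at 0 h, clones dZF1 and dZF2 were at least 2-fold apart for 32 genes (6.44%), with a median absolute log2 ratio of 0.23. At 0 h dZF1 and dZF2 differed that much from WT Rep. 2 for 44 and 66 genes. Between 0 and 48 h in WT Rep. 2, 213 genes (42.9%) were that far apart in either direction. The 497 genes were chosen for a change in these experiments, and the clones are no WT replicate. The difference between the clones is therefore no measure of the spread between WT cultures.

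**Figure D1:**
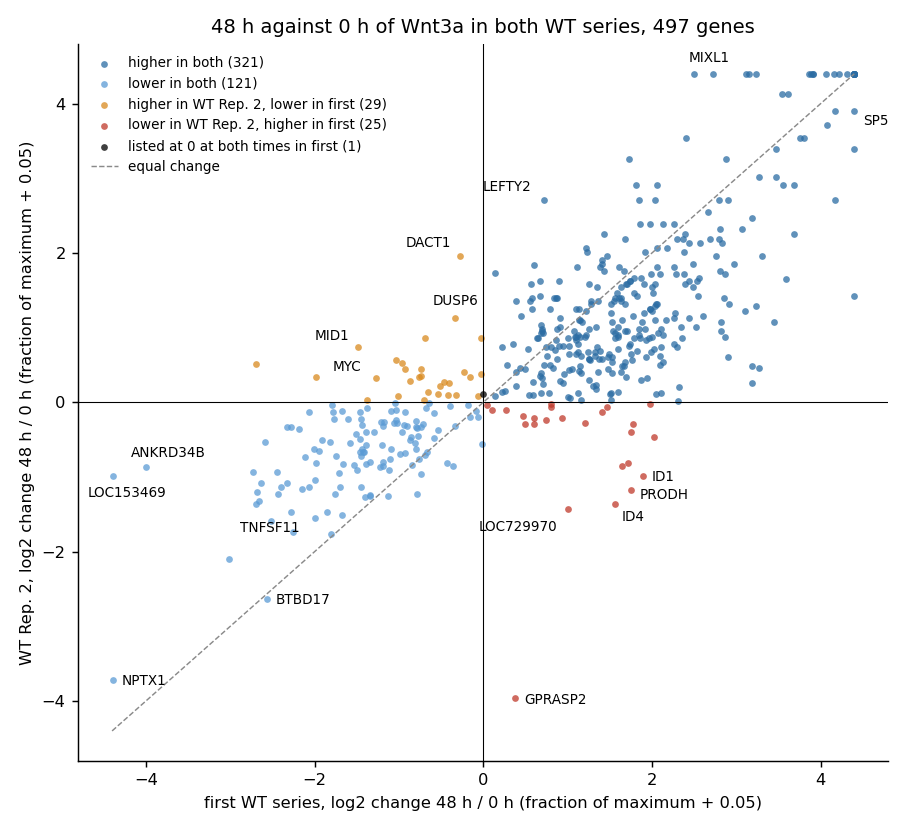
Log2 change from 0 to 48 h of Wnt3a for 497 genes, after adding 0.05 to each value as a fraction of the gene's highest RPKM in its series, with the first WT series on the horizontal axis and WT Rep. 2 on the vertical axis (1 point a gene, 1 library a time). Most points lie in the quadrants of shared direction (321 higher in both, 121 lower in both), 231 of the 321 below the dashed line of equal change, and 54 lie in the quadrants of opposite direction.

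Both WT series moved in the same direction for 442 of the 497 genes (88.9%), of which 321 were higher and 121 lower at 48 h. Opposite directions were found for 54 genes (10.9%): 29 were higher in WT Rep. 2 and lower in the first WT series, and 25 the reverse. The remaining gene, GPR75-ASB3, is listed at 0 at both times in the first WT series. Genes that were higher in the first WT series were higher in WT Rep. 2 in 92.8% of 346 cases, and genes that were lower were lower in 80.7% of 150. Across the 497 genes Pearson's r was 0.81 and Spearman's rank correlation 0.80. These genes are not independent replicates, and they were selected for change.

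The change was smaller in WT Rep. 2 for 231 of the 321 genes higher in both series and for 108 of the 121 genes lower in both. The median difference, WT Rep. 2 minus the first WT series on the log2 scale, was -0.36 over all 321 and 0.74 over all 121. Of 274 genes at least 2-fold higher in the first WT series, 160 (58.4%) were so in WT Rep. 2, and of 92 at least 2-fold lower, 27 (29.3%) were. Read the other way, 160 of the 181 genes called higher in WT Rep. 2 and 27 of the 32 called lower had the same call in the first WT series. The median absolute difference between the series was 0.68. The genes were chosen for a change, and their size of change in the first WT series is not independent of that choice. These counts therefore cannot tell a weaker response in WT Rep. 2 from an effect of the choice of genes.

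Among the transcription factors of the primitive streak, 7 of the 8 genes with a value were at least 2-fold higher in WT Rep. 2 and 0 lower. Their median was 4.39, against 0.65 over all 497 genes, of which 36.4% were higher. T (brachyury), the T-box factor of nascent mesoderm, stood at 0, 0.18, 0.34 and 1 of its maximum at 0, 12, 24 and 48 h. EOMES, the T-box factor required for endoderm and mesoderm formation, stood at 0, 0.03, 0.05 and 1, and the homeobox gene MIXL1 at 0, 0, 0.08 and 1. In both genes nearly all of the rise fell between 24 and 48 h. In the first WT series EOMES had an RPKM of 0, 34.8, 109.3 and 139.8, and MIXL1 of 0, 68.6, 271.1 and 76.4, so that MIXL1 was past its peak there at 48 h. The organizer gene GSC behaved like MIXL1 in both series, at 0, 0, 0.10 and 1 in WT Rep. 2 and at an RPKM of 0.5, 7.3, 57.8 and 27.2 in the first. LHX1, a LIM homeobox gene of the same region, stood at 0, 0.02, 0 and 1, with an RPKM of 0.6, 0.3, 5.7 and 93.7 in the first WT series. SP5 itself stood at 0.02, 0.02, 0.09 and 1 (log2 change 3.91), against an RPKM of 0, 49.8, 90.5 and 135.7. Its rise was therefore under way at 12 h in the first WT series and not yet visible at 12 h in WT Rep. 2. TBX3 rose by 2.71 on the log2 scale in WT Rep. 2 and by 4.17 in the first. The exception was the forkhead gene FOXB1, at 1, 0.41, 0.63 and 0.53 in WT Rep. 2 (-0.86) and at an RPKM of 0.7, 6.8, 10.4 and 3.3 in the first (1.65).

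Of 10 definitive endoderm genes, 7 were at least 2-fold higher (36.4% of all 497 genes) and 0 lower, with a median of 4.39. SOX17, GATA6 and HHEX, transcription factors of the endoderm and its foregut derivatives, were each listed at 0 until 24 h and at 1 at 48 h in WT Rep. 2. For SOX17 the first WT series gave the same course, with an RPKM of 0, 0, 0.6 and 89.6, whereas GATA6 (0, 0.1, 6.1 and 41.1) and HHEX (0, 0.9, 4.3 and 28.1) had begun to rise by 24 h. FOXA2, a forkhead factor of the endoderm, stood at 0, 0, 0.03 and 1, and CER1, a secreted antagonist of NODAL, BMP and WNT ligands, at 0, 0, 0.02 and 1. CER1 was already at an RPKM of 466.7 at 24 h in the first WT series, of 634.0 at 48 h. The chemokine receptor CXCR4, a surface marker of definitive endoderm, was late in both, at 0.01, 0.07, 0.05 and 1 in WT Rep. 2 and at 3.1, 2.4, 2.8 and 86.0 RPKM in the first. The 3 genes of the list below 2-fold, all of them present before Wnt3a, were the homeobox gene OTX2 (0.41), the receptor tyrosine kinase KIT (0.61) and the keratin KRT19 (0.45), with 1.36, 1.48 and 1.48 in the first WT series.

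Altogether 24 genes were listed at 0 at 0 h in WT Rep. 2, and all 24 were at 1 at 48 h. Besides T, EOMES, MIXL1, GSC, LHX1, SOX17, FOXA2, GATA6, HHEX and CER1 they include PRDM1, the WNT antagonists DKK1 and DKK4, the ligand FGF17, the apelin receptor APLNR, and ARHGAP40, C15orf2, FAM89A, GLIPR1L1, KCNV1, LOC440925, MOBP, NCRNA00261 and PRSS1. Their RPKM at 0 h in the first WT series ran from 0 to 4.2, and 13 of them were listed at 0 there too. At 24 h of Wnt3a, 10 of the 24 were still at 0 in WT Rep. 2, and 19 were at or below 0.1 of their maximum. The highest at that time was MOBP, at 0.52. No fold is given against 0.

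**Figure D2:**
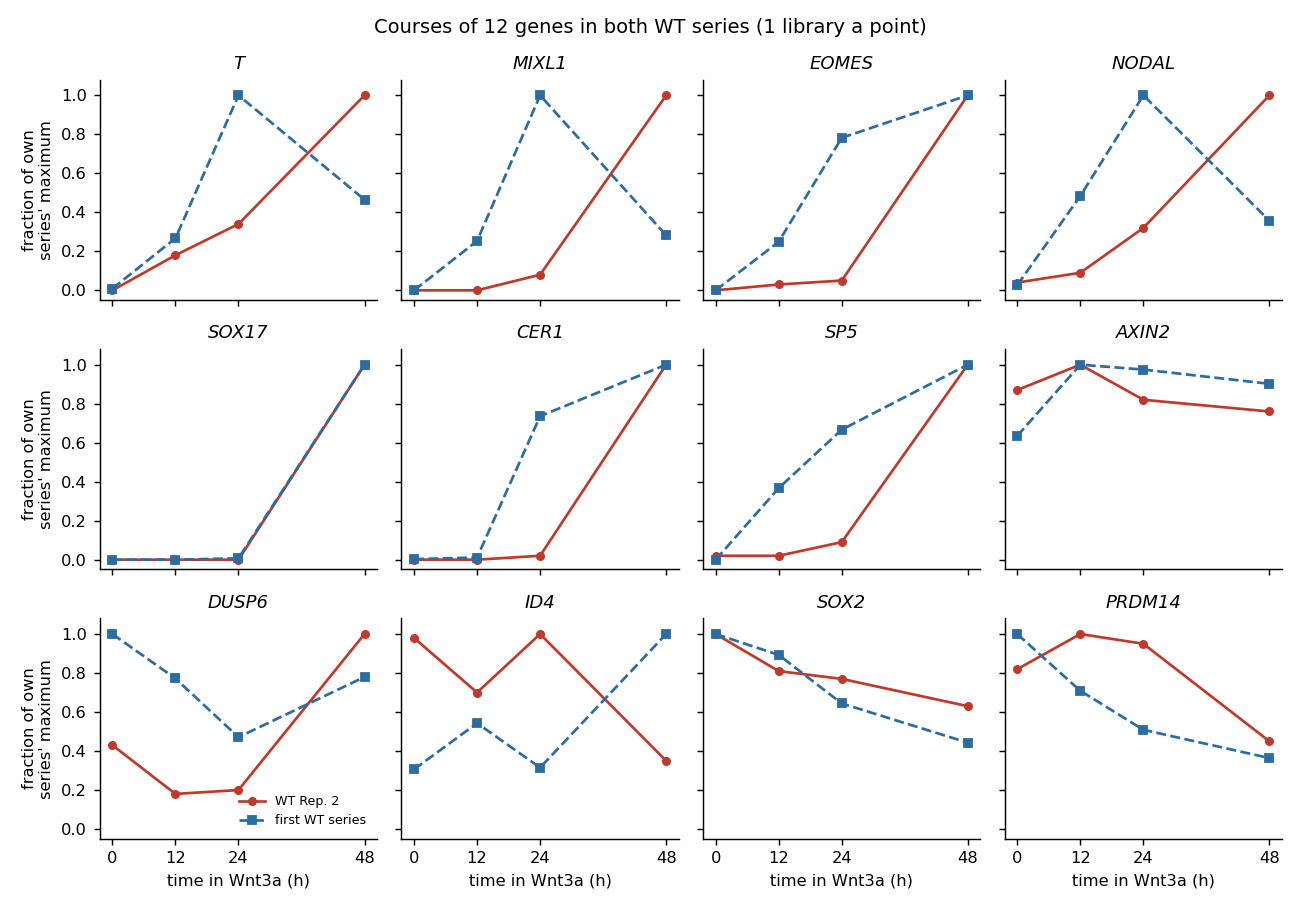
Courses of 12 genes from 0 to 48 h of Wnt3a, as the fraction of each gene's highest RPKM in its own series (vertical axis), in WT Rep. 2 (solid red line, circles) and the first WT series (dashed blue line, squares), with 1 library a point. T, MIXL1 and NODAL are at 1 at 24 h in the first series and at 0.34, 0.08 and 0.32 in WT Rep. 2, SOX17 follows the same course in both, and ID4 ends at 0.35 in WT Rep. 2 and at 1 in the first series.

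Genes of the NODAL pathway were the next highest list, with 6 of 8 at least 2-fold higher (36.4% of all 497 genes), 0 lower and a median of 2.55. NODAL, a TGF-β family ligand that patterns the streak, stood at 0.04, 0.09, 0.32 and 1 in WT Rep. 2, a log2 change of 3.54. In the first WT series its RPKM was 4.3, 77.1, 159.2 and 56.9, a change of 2.4 at 48 h after a peak at 24 h. The feedback inhibitors LEFTY1 (0.11, 0.08, 0.35 and 1) and LEFTY2 (0.11, 0.13, 0.36 and 1) rose by 2.71 each. LEFTY2 was one of few genes with a far larger change in WT Rep. 2 than in the first series (0.72), where its RPKM ran 3.4, 11.8, 37.5 and 6.8. GDF3, a related ligand, rose by 2.39 and TGFB1 by 1.58. PMEPA1, a target and inhibitor of TGF-β signaling, had a change of 0.86. FST, which encodes the activin-binding protein follistatin, was highest at 12 h in WT Rep. 2 (0.62, 1, 0.95 and 0.72, a change of 0.20), while the first WT series held it at an RPKM of 7.5, 35.2, 43.8 and 47.1 (2.33).

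Among WNT ligands, receptors and transcription factors, 4 of 9 genes were at least 2-fold higher and 0 lower, with a median of 0.88 against 1.49 in the first WT series. The share that was higher lies near the 36.4% of all 497 genes. The ligand WNT3 stood at 0.08, 0.24, 0.32 and 1 (3.01), and WLS, the carrier that WNT proteins need for secretion, at 0.09, 0.13, 0.40 and 1 (2.91). The planar polarity gene VANGL1 (1.54) and the WNT5A receptor ROR2 (1.32) were also past 2-fold. The Frizzled genes differed among themselves, with FZD5 at 0.88, FZD8 at 0.65 and FZD7, a receptor marking undifferentiated cells, at -0.67. FZD7 matched its value in the first series (-0.66), at 1, 0.92, 0.91 and 0.61 of its maximum in WT Rep. 2. TCF7, a TCF/LEF factor, was highest at 12 h (0.52, 1, 0.95 and 0.80).

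WNT feedback genes fell into 2 kinds. The extracellular inhibitors DKK1 and DKK4, both at 0 at 0 h, and APCDD1 (0.22, 0.22, 0.28 and 1, a change of 1.96) were past 2-fold in both series, as was the small GTPase RHOU (1.36). AXIN2, a scaffold of the β-catenin destruction complex and a widely used WNT target, was at 0.87, 1, 0.82 and 0.76 in WT Rep. 2, a change of -0.18, and at an RPKM of 15.5, 24.4, 23.8 and 22.0 in the first (0.47). Its value at 0 h in WT Rep. 2 was thus higher, relative to its maximum, than at 48 h. NKD1, which binds Dishevelled, had a change of 0.54 against 1.68, and the cyclin CCND1 of 0.10 against 0.55. DACT1, another Dishevelled-binding protein, was of opposite direction. It stood at 0.22, 0.34, 0.40 and 1 in WT Rep. 2 (1.96), while the first WT series gave an RPKM of 19.3, 40.4, 56.3 and 15.5 (-0.27), higher than at 0 h until 24 h. The secreted antagonist SFRP1 was lower in both, by -0.70 and -0.68. In all, 6 of the 10 were at least 2-fold higher, against 36.4% of all 497 genes, and 0 lower (median 1.31).

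In the first WT series 8 of the 9 BMP genes with a value were at least 2-fold higher at 48 h (median 1.56), against 274 of all 497 genes. WT Rep. 2 had 1 higher and 2 lower (median 0.61), where 36.4% and 6.44% of all 497 genes were so. The 1 higher gene was the ligand BMP2, at 0.26, 0.41, 0.24 and 1 (1.76). The ID genes encode helix-loop-helix proteins that respond to BMP and block differentiation factors. ID1 stood at 1, 0.83, 0.73 and 0.48 in WT Rep. 2 (-0.99) and at an RPKM of 56.5, 50.0, 59.6 and 242.2 in the first (1.89). ID4 stood at 0.98, 0.70, 1 and 0.35 (-1.36) against 6.7, 11.9, 6.9 and 21.9 RPKM (1.56). ID2 and ID3 were higher in both, by 0.61 and 0.69 against 1.94 and 1.39. The inhibitors BAMBI, a decoy receptor, and SMAD6 had changes of 0.13 and 0.74 against 1.51 and 2.11. CHRDL1, a BMP antagonist of the chordin family, was lower in both series, at 0.81, 1, 0.74 and 0.37 in WT Rep. 2 (-1.03 against -1.99).

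Of 13 FGF and ERK pathway genes, 6 were at least 2-fold higher, a share not far from the 36.4% of all 497 genes, 1 was lower and 4 were of opposite direction. FGF17 was at 0 until 24 h. The ERK phosphatases DUSP4 (1.58) and DUSP10 (2.13), the receptor antagonist IL17RD (1.81) and the FGF receptor partner FLRT3 (2.25) rose in both series. DUSP6, an ERK phosphatase induced by ERK signaling, stood at 0.43, 0.18, 0.20 and 1 in WT Rep. 2 (1.13) and at an RPKM of 176.3, 136.1, 83.0 and 137.6 in the first (-0.34). Both series passed through a low at 12 or 24 h, and they differed in where 48 h stood relative to 0 h. FGFR3 moved the other way, at -0.29 against 1.78. FGFR2 was lower in both (-0.63 and -0.80), and the immediate early gene EGR1 fell by 1.13 in WT Rep. 2 and by 2.07 in the first WT series on the log2 scale.

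Of 18 pluripotency genes, 11 had a value in the mutant table. Of these 11, 9 had lower values at 48 h than at 0 h in WT Rep. 2 and 2 had higher ones. Of all 497 genes, 146 were lower by any size and 6.44% at least 2-fold lower. None of the 11 was at least 2-fold higher or lower there (0 genes, median -0.58), whereas 8 were at least 2-fold lower in the first WT series (median -1.09). SOX2, a core factor of the undifferentiated state, stood at 1, 0.81, 0.77 and 0.63 (-0.63 against -1.09). PRDM14 stood at 0.82, 1, 0.95 and 0.45 (-0.80 against -1.34), and the DNA methyltransferase DNMT3B at 0.96, 1, 0.85 and 0.75 (-0.34 against -0.79). For PRDM14 and DNMT3B the highest value was thus at 12 h in WT Rep. 2 and at 0 h in the first WT series. The surface glycoproteins PODXL (-0.96) and CD24 (-0.58) and the telomere protein TERF1 (-0.76) were lower in both. MYC (0.32 against -1.27) and the RNA polymerase III subunit POLR3G (0.03 against -1.38) were not lower in WT Rep. 2. MYCN, counted among the 9 lower ones, went only from 1 to 0.99, against an RPKM of 104.8 and 48.1. The other genes of the list have no value in the mutant table, whose genes were chosen for a change. In the first WT series they stayed below 2-fold. Their changes there were -0.26 for POU5F1, 0.04 for NANOG, -0.35 for LIN28A and -0.04 for LIN28B. SALL4 had 0.14, ZFP42 -0.59 and DPPA4 -0.63.

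Neural genes went both ways in both series, with 8 of 27 at least 2-fold higher and 4 lower in WT Rep. 2 (median -0.13) and 7 and 12 in the first (median -0.85). Over all 497 genes, 36.4% were higher and 6.44% lower in WT Rep. 2. NPTX1, a secreted neuronal pentraxin, stood at 1, 0.96, 0.77 and 0.03 (-3.71), the largest decrease shared with the first WT series, where its RPKM was 8.6, 7.3, 2.7 and 0. SOX3, a factor of neural progenitors, fell by 1.22, as did the synaptic vesicle gene SYP, and the junctophilin JPH4 fell by 1.16. POU3F1, also of neural progenitors, stood at 1, 0.71, 0.75 and 0.91 in WT Rep. 2 (-0.13) against an RPKM of 30.8, 15, 9.7 and 6.2 (-2.06). Among those higher in both were GAD1, which makes GABA (3.39), the neurexin family gene CNTNAP2 (2.19), and the tubulins TUBB2A (1.54) and TUBB2B (1.10), which are highly similar to each other and may share reads.

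Of 24 guidance and adhesion genes 16 were at least 2-fold higher and 1 lower (median 1.18), against 181 of all 497 genes higher (36.4%) and a median of 0.65. PCDH10, a protocadherin, stood at 0.08, 0.11, 0.25 and 1 (3.01), the semaphorin receptor PLXNA2 at 0.09, 0.06, 0.11 and 1 (2.91), and the ephrin receptor EPHB3 at 0.20, 0.10, 0.12 and 1 (2.07). CDH2, the N-cadherin of mesenchymal and neural cells, stood at 0.29, 0.36, 0.45 and 1 (1.63) against 16.7, 19.5, 44.2 and 63.3 RPKM (1.74). PCDH18 was the 1 that was lower (-1.24 against -1.34). Of 27 extracellular matrix genes 11 were higher, a share near that of all genes, and 3 lower (median 0.93). The hyaluronan synthase HAS2 stood at 0.03, 0.03, 0.09 and 1 (3.71), tenascin TNC rose by 2.32 and the integrin ITGA5 by 1.25. Fibronectin FN1 was below 2-fold (0.58, 0.70, 0.69 and 1, a change of 0.74) although the first WT series had it at 16.4, 21.2, 21.8 and 99.8 RPKM (2.29). The matrix genes ADAMTS8, HAPLN3 and LECT1 were lower in both series.

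Of 22 genes of the cytoskeleton and its small GTPases 8 were higher, the same share as over all 497 genes (36.4%), and 0 lower (median 0.92). Among the 8 were RHOBTB3 (2.19), the caveolar protein CAV1 (2.01) and the GTPase-activating protein ARHGAP29 (1.86). Filamin FLNC went from 0.97 to 0.98 with a change of 0.01 against 2.31 in the first WT series, where its RPKM was 1.5 and 9.3. The next 2 lists also had shares not far from that of all genes. Of 15 GPCRs and peptide receptors 7 were higher and 1 lower (median 0.99), led by APLNR, CXCR4 and the bradykinin receptor BDKRB2 (0.04, 0.04, 0.04 and 1, a change of 3.54). GPR176 was the 1 that was lower (-1.32). Of 9 interferon and NF-κB genes 4 were higher and 0 lower (median 0.96), with IFITM1 at 1.39 and IFITM3 at 1.10, which are close paralogs. Of 5 genes of retinoid handling, CYP26A1, which breaks down retinoic acid, stood at 0.02, 0.02, 0.03 and 1 (3.91). The retinal reductase DHRS3 was lower, at 0.89, 1, 0.85 and 0.17 (-2.10 against -3.02), and CRABP2 had a change of 0.03 against 1.16 (list median 0.03).

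**Figure D3:**
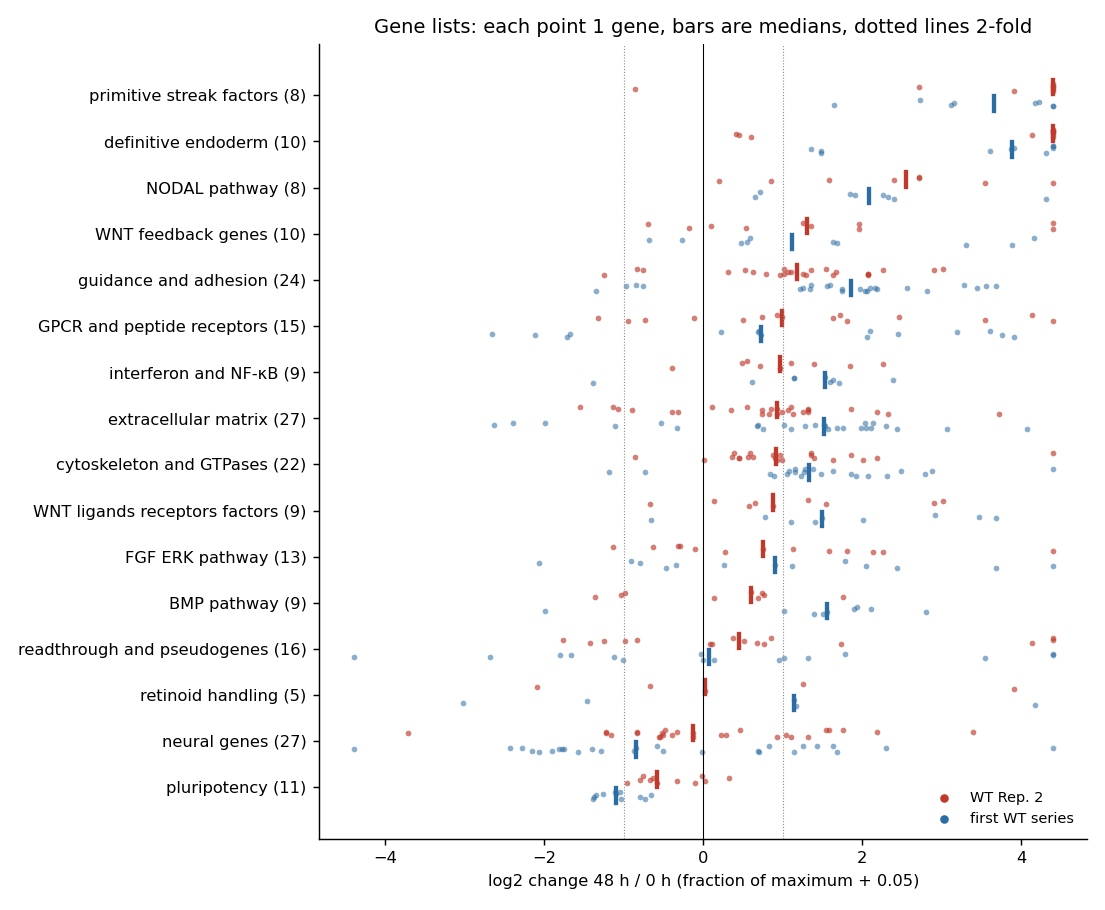
Log2 change from 0 to 48 h (horizontal axis, after adding 0.05 to the fraction of the maximum) of the genes of 16 lists, in WT Rep. 2 (red, upper row of each list) and the first WT series (blue, lower row), with 1 point a gene, the number of genes in brackets, a bar at the median and dotted lines at 2-fold. The primitive streak and definitive endoderm lists have medians of 4.39 in WT Rep. 2, the pluripotency list has -0.58 against -1.09, and the BMP list has 0.61 against 1.56.

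The largest decreases in WT Rep. 2 outside these lists were shared with the first WT series, with 1 exception. BTBD17 stood at 1, 0.81, 0.74 and 0.12 (-2.63 against -2.57), and MFGE8, which encodes a milk fat globule protein that bridges apoptotic cells and phagocytes, at 1, 0.86, 0.95 and 0.32 (-1.50 against -1.67). LOC157627 (-1.76), TMEM151B (-1.73), FAM110C (-1.58) and the potassium channel subunit KCNG3 (-1.47) were also lower in both, as was TNFSF11, the ligand RANKL (-1.47). The exception was GPRASP2, a GPCR sorting protein, which stood at 0.73, 0.49, 1 and 0 in WT Rep. 2. Its log2 change of -3.96 was the most negative of the 497, but it rests on a value listed at 0 in a single library. The first WT series held it at 6.3, 6.8, 14.7 and 8.4 RPKM (0.38), and the clones were split, at -2.46 in dZF1 and 3.60 in dZF2.

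The rise came later in WT Rep. 2 than in the first WT series. The 160 genes at least 2-fold higher in both had covered a median of 3.27% of their rise at 12 h and 10.7% at 24 h in WT Rep. 2, against 14.7% and 58.4% in the first series. For 137 of the 160 the share reached at 24 h was smaller in WT Rep. 2, and 36 were at least 2-fold above 0 h at 24 h, against 112. The 27 genes at least 2-fold lower in both had covered 19.0% of their fall at 24 h in WT Rep. 2 and 64.5% in the first. Over all 497 genes, the median absolute log2 change after 12, 24 and 48 h was 0.23, 0.27 and 0.88 in WT Rep. 2 and 0.49, 0.99 and 1.53 in the first WT series. At 24 h, 39 genes were at least 2-fold higher in WT Rep. 2, fewer than the 111 of dZF1, the 144 of dZF2 and the 189 of the first WT series. At 48 h the numbers were 181, 235, 228 and 274.

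Most genes had their highest value at 48 h in WT Rep. 2 (313 of 497, against 241 in the first WT series), and few at 24 h (32, against 94). Of the 94 genes highest at 24 h in the first WT series, 76 (80.9%) were highest at 48 h in WT Rep. 2, among them T, MIXL1, GSC and NODAL. The early course of the genes that ended lower differed as well. Of the 132 genes highest at 0 h in the first WT series, 58 (43.9%) were highest at 12 h in WT Rep. 2, and 43 (32.6%) at 0 h. Of the 121 genes lower in both series, 61 were highest at 12 h in WT Rep. 2 against 10 in the first WT series. Set against each time of the first WT series, the change in WT Rep. 2 at 48 h differed by a median absolute value of 0.61 from that at 12 h, 0.48 from that at 24 h and 0.68 from that at 48 h. The change in WT Rep. 2 at 24 h was nearest to that at 12 h, at 0.38. That change was itself small (median absolute value 0.27), and 12 h had the smallest changes of the first WT series (0.49). The distance is therefore no sign that 24 h in WT Rep. 2 resembled 12 h in the first WT series. The same limit holds for 48 h in WT Rep. 2, whose median absolute change was 0.88. In the first WT series it was 0.99 at 24 h and 1.53 at 48 h. The 0.48 alone is thus no sign that 48 h in WT Rep. 2 resembled 24 h there. The 3 changes of a series share its 0 h library, so these figures describe the libraries and are not independent of each other. The passage, density or Wnt3a batch of either series is not given in the labels, and their part in this difference was not tested.

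**Figure D4:**
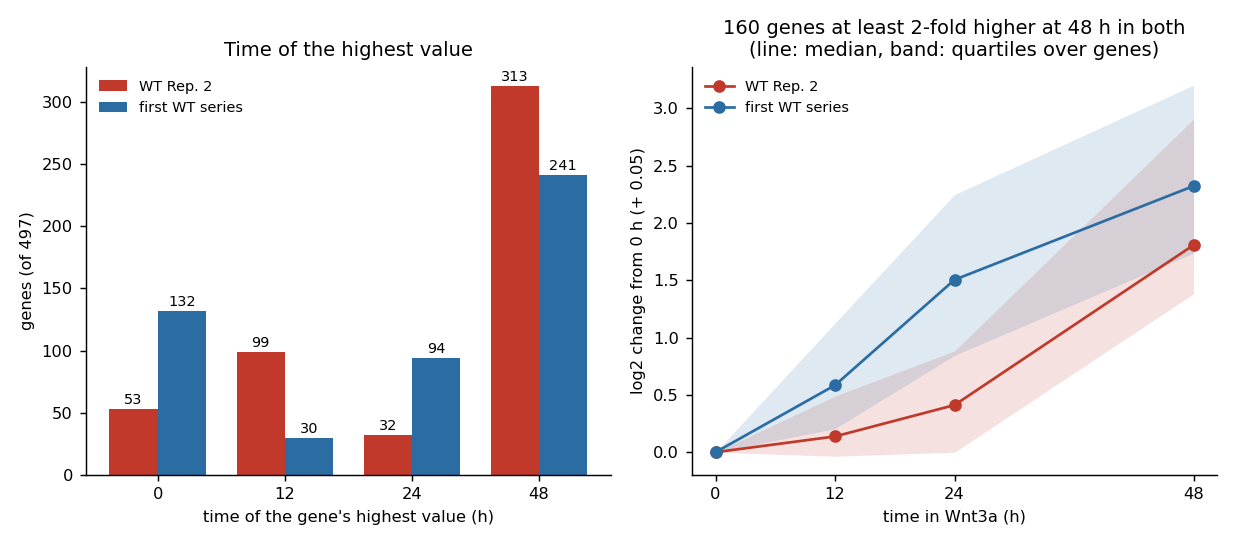
Left, number of the 497 genes (vertical axis) with their highest value at each time of Wnt3a (horizontal axis, hours), in WT Rep. 2 (red) and the first WT series (blue). Right, log2 change from 0 h after adding 0.05 for the 160 genes at least 2-fold higher at 48 h in both (line, median; band, quartiles over genes), which is 0.41 in WT Rep. 2 and 1.5 in the first series at 24 h.

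Opposite directions were mostly small changes. The 54 genes had a median absolute change of 0.29 in WT Rep. 2 and 0.75 in the first WT series, and the share of opposite genes was 42.5% among genes that changed by less than 0.5 in the first WT series, 18.7% from 0.5 to 1, 8.41% from 1 to 2 and 1.32% from 2. In 3 equal classes of genes by highest RPKM, from low to high, the share was 8.43%, 12.1% and 12%. At 1.5-fold or more in both series 8 genes were opposite, and at 2-fold or more 3.

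The 3 genes that were at least 2-fold lower in WT Rep. 2 and at least 2-fold higher in the first WT series were ID4, PRODH and LOC729970. PRODH, the mitochondrial enzyme that starts proline breakdown, stood at 0.90, 1, 0.73 and 0.37 (-1.18) and at an RPKM of 3.3, 3.2, 5.0 and 12.6 (1.75). LOC729970 stood at 1, 0.52, 0.40 and 0.34 (-1.43) and at an RPKM of 2.4, 15, 7.3 and 5.6 (1.01). Values for ID4 are given above. In WT Rep. 2 the 48 h library was the lowest of the 4 for each of these genes, and for ID4 and PRODH the 48 h library was the highest in the first WT series. The RPKM of PRODH and LOC729970 at 0 h were low, under 4, where 1 decimal and an unknown number of reads limit the ratio.

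Further genes lower in WT Rep. 2 and higher in the first WT series were ID1, FOXB1, the signaling adaptor SHB (1, 0.50, 0.49 and 0.55, -0.81 against 1.72), CDR1 (-0.47 against 2.03) and the collagen COL2A1 (-0.39 against 1.75). Higher in WT Rep. 2 and lower in the first series were the ubiquitin ligase MID1 (0.58, 0.94, 0.62 and 1, 0.74 against -1.49), the vasoactive peptide gene ADM (0.53, 0.77, 0.63 and 1, 0.86 against -0.70), the kinase anchor AKAP2 (0.56 against -1.03), the surface protein THY1 (0.52 against -0.97), KLHL7 (0.45 against -0.74) and KLHDC7A (0.44 against -0.93). C17orf61-PLSCR3, a readthrough gene, had 0.51 against -2.69, but its RPKM in the first WT series ran 5.2, 14.8, 19.1 and 0. Of 16 readthrough genes, pseudogenes and unnamed loci, 4 were opposite, 4 at least 2-fold higher and 3 lower (median 0.45). The shares over all 497 genes were 10.9%, 36.4% and 6.44%. Their reads may be split with neighbouring or near-identical genes, so their values are uncertain.

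The clones, each with its own 0 h library, went with the first WT series more often than with WT Rep. 2 for these genes. Of the 54 opposite genes, both clones had the direction of the first WT series for 31, that of WT Rep. 2 for 9, and were split for 14. The median absolute change of the 54 was 0.29 in WT Rep. 2 and 0.75 in the first WT series. A direction near 0 is the less certain one, so these counts do not tell which WT series is the more typical. Of the 442 genes of shared direction, both clones shared it for 416. As ratios to its maximum in WT Rep. 2, ID1 went from 0.56 to 0.68 in dZF1 between 0 and 48 h and from 0.44 to 0.81 in dZF2. ID4 went from 0.38 to 0.32 and from 0.34 to 0.84. At 0 h, ID1 and ID4 were thus at 1 and 0.98 in WT Rep. 2 and at no more than 0.56 and 0.38 in the clones. PRODH stood at 0.90 in WT Rep. 2 at 0 h and at 0.28 and 0.11 in the clones. The clones lack the SP5 zinc fingers, and their agreement with either WT series was not compared with a further WT culture. SP5 RNA reached 2.54 and 2.61 of its WT Rep. 2 maximum in dZF1 and dZF2 at 48 h. The value covers the whole gene, so it does not check the deletion.

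**Figure D5:**
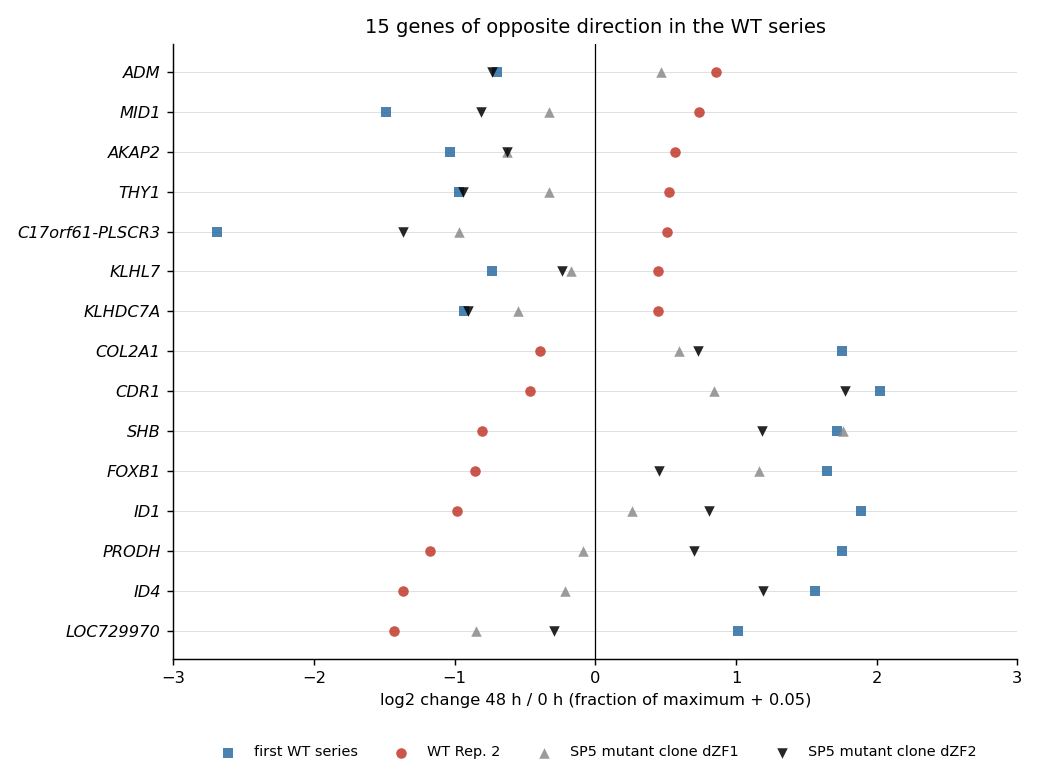
Log2 change from 0 to 48 h (horizontal axis, after adding 0.05) of the 15 genes of opposite direction with the largest smaller change, in the first WT series (blue squares), WT Rep. 2 (red circles) and the SP5 mutant clones dZF1 (grey triangles) and dZF2 (black triangles), with 1 library a time. For ID1, FOXB1, SHB, CDR1, COL2A1, MID1, AKAP2 and THY1 both clones lie on the side of the first series, and for LOC729970 both lie on the side of WT Rep. 2.

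Genes of the largest difference in size, among those of shared direction, mostly changed little in WT Rep. 2. The serine protease inhibitor SERPINB9 stood at 0.70, 0.69, 0.76 and 1 (0.49) and at an RPKM of 19.8, 46.7, 140.9 and 301.6 (3.18). The carbonic anhydrase CA2 had a change of 0.25 against 3.18, the Kell blood group gene KEL of 0.47 against 3.27, and the GTPase-activating protein DLC1 of 0.88 against 2.87. Both clones were past 2-fold for these 4 genes, from 1.51 for CA2 to 4.82 for DLC1. Among genes lower in both, LOC153469 had a change of -0.98 against -4.39 and ANKRD34B of -0.87 against -4.00, where the first series was listed at 0 and 0.1 RPKM at 48 h.

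SP5 binding was described from the peak lists of the ChIP-Seq experiment, in cells treated with Wnt3a for 24 h. Of the 487 genes matched to GENCODE, 26 (5.34%) had a summit within 2000 bases of an annotated start site: 14 of 318 genes higher in both series (4.4%), 7 of 117 lower in both (5.98%), 2 of 28 higher only in WT Rep. 2 (AKAP2 and ANKRD33B) and 3 of 24 lower only there (AXIN2, MLLT6 and MN1). The share over all annotated genes was not counted, so 5.34% is not read as high or low. The paper counts genes with a nearby SP5 peak under its own assignment, and its shares were not set beside this one. The split of the 26 genes by direction depended on the control. Against the buffer-treated control the same ChIP library gave 22 genes, of which 17 were higher in both, 2 lower in both, 1 higher only in WT Rep. 2 and 2 lower only there, and AKAP2 and MN1 had no peak. Of the genes with a peak and opposite directions, AKAP2 changed by 0.56 in WT Rep. 2. The others were near 0 there, with ANKRD33B at 0.03, AXIN2 at -0.18, MLLT6 at -0.02 and MN1 at -0.06. Their direction in WT Rep. 2 is thus uncertain. No relation between a peak and the direction of the change is read from these counts. The MIXL1 peak (chr1:226410325-226411482, 95 tags) and the SP5 peak (chr2:171570777-171572606, 93 tags) lie 152 and 241 bases from a start site. In WT Rep. 2 the 14 genes higher in both ran from a log2 change of 0.18 at TP53I11 to 4.39 at MIXL1, with WNT3 at 3.01 and NKD1 at 0.54. The 7 lower in both ran from -1.27 at LHFP to -0.22 at C6orf132, with FGFR2 at -0.63 and SAMHD1 at -0.40. The peaks at AXIN2 and MN1 have false discovery rates of 30.4% and 47.0%, and the 26 run from 0% to 50.2%. The header of both lists names the same ChIP library, from H9 cells, another human embryonic stem cell line, where the label gives H1. That header names a library with Wnt3a, but the label of the list against the buffer-treated control gives 0 h. Header and label thus disagree on treatment for that list. The paper reports no significant SP5 peaks in cells without Wnt3a.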

How the data were processed

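RNA-Seq of H1 cells was analysed at 0, 12, 24 and 48 h in 4 series, grouped by the conditions in the labels. Per the paper's methods the authors mapped reads with TopHat and ran Cuffdiff, and their processing notes also list Bowtie 0.12.7 and SAMtools 0.1.12a; the other versions and gene annotation are not given in the sources used here. The authors deposited RPKM of the first WT series (1 decimal, 10975 genes of which each reaches at least 4). In the deposited mutant table, WT Rep. 2 is a fraction (1 at each gene's maximum), and clone values are a ratio with the same denominator (2 decimals). The deposited MACS 1.4.2 lists for ChIP-Seq hold a tag count, a score made from the p-value, a fold over control and, in percent, the false discovery rate. Deposited tables of the first series as fractions were not used, and 0 columns lacked a condition.

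Changes were log2 ratios after adding 0.05, and called means at least 2-fold. The genes and lists were chosen with earlier results of these data known. Named were list members, the 10 highest and 10 lowest changes in WT Rep. 2, the 10 largest shared changes each way, up to 15 opposite genes, genes listed at 0 and up to 15 with the largest difference in size. ANKRD33B, MLLT6, MN1, TP53I11, LHFP and C6orf132 were named for a peak after their values were seen. A result for 1 list member is not reported here. Each group has 1 library, and depth is unknown. GENCODE 44 on GRCh37 gave start sites. Python 3.11.15, numpy 2.4.6, pandas 2.3.3, scipy 1.17.1 and matplotlib 3.10.9 were used, with the steps tested on simulated data.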

Additional observations from a re-analysis of the deposited data

Results flagged for a closer look

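ID4, PRODH and LOC729970 moved at least 2-fold in opposite directions from 0 to 48 h of Wnt3a in the 2 WT series. On the log2 scale after adding 0.05, ID4 changed by -1.36 in WT Rep. 2 and by 1.56 in the first WT series, PRODH by -1.18 and 1.75, and LOC729970 by -1.43 and 1.01. Each change rests on 1 library a time, so the difference between the series was not tested. The clones dZF1 and dZF2 were at -0.22 and 1.19 for ID4, at -0.09 and 0.70 for PRODH and at -0.85 and -0.29 for LOC729970.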

How the results depend on the processing

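No paired analysis was possible because the table of WT Rep. 2 holds 1 WT library a time; the first WT series comes from a table scaled separately, and no fit across both tables was made. With 1 library a time, none was left out. Of 112 values under alternatives, 98 kept within 1.5 times the reported count or median, or within the 95% exact binomial interval of the reported share. The 32 genes called lower became 18 with a pseudocount of 0.2 and 21 among the 405 genes with an RPKM of at least 10 in the first WT series. Centring on the 51 genes that changed under 1.5-fold in the first WT series moved all changes by 0.14 and no count by more than 1.5 times. Shared direction went from 88.9% to 97.5% (8 opposite) for genes at least 1.5-fold in both, and to 98.4% (3 opposite) at 2-fold, which leave fewer genes by construction. With the 12 h library of WT Rep. 2 as the base, it was 84.7%; this setting, and one that drops genes within 0.01 of their 0 h value, were added once the data had been seen. The cause was not tested. In the gene lists, the number called lower with a pseudocount of 0.2 became 1 for BMP, 0 for FGF and ERK, 1 for neural, 1 for extracellular matrix and 0 for guidance genes, and with 0.01 it became 1 for pluripotency and 2 for GPCRs. The number of reads is unknown, so the precision of low values cannot be given.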
